A study of Homo sapiens with 402 samples.

Results

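PFOA, PFNA and PFDA are perfluorinated carboxylic acids with 8, 9 and 10 carbons: perfluorooctanoic, perfluorononanoic and perfluorodecanoic acid. They form a homologous series in which each member carries 1 more fluorinated carbon than the one before. The libraries described here were taken by label: every sample labelled PFOA, PFNA or PFDA at 0.025, 0.25, 2.5 or 25 µM, with 4 libraries per chemical and dose. This gave 48 of the 402 samples, 16 for each chemical. The cells were MCF10A, an established non-tumorigenic line of human breast epithelium, labelled wild type and grown at passage 105 in multiwell plates. All groups were exposed for 48 h, and RNA was read by plate-based sequencing of barcoded lysates as part of a screen of 21 chemicals. PFOA was compared with the 4 control libraries (dose 0) labelled with water as solvent, and PFNA and PFDA with the 12 control libraries labelled DMSO. All of these libraries carry the same plate identifier. The labels call the 4 libraries of a dose biological replicates and do not say whether they came from separate cultures, so that p-values measure the spread between wells of 1 line, which may be partly technical.

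Perfluorocarboxylates resemble fatty acids in shape, with an acid head and a fluorinated tail that cells do not break down. They are known ligands of the peroxisome proliferator-activated receptors (PPARs), nuclear receptors that switch on genes of fatty acid uptake and oxidation, and in rodent liver this is their best-described effect. Breast epithelial cells also express PPARs, along with steroid-metabolising enzymes of the aldo-keto reductase family, which set the local activity of progesterone and androgens and are also targets of the oxidant-sensing factor NRF2.

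The 64 libraries of the 3 chemicals and their controls held 4608173 to 17119488 counts (median 12562904), of which 4.99% to 13.571% came from mitochondrial genes. In this plate 19468 genes passed the filter on low counts. Basal breast epithelial markers were all detected (12 of 12). Of the markers of other cell types, 3 of 10 for leukocytes, 3 of 8 for endothelium and 5 of 9 for fibroblasts passed the filter, and defining genes such as PTPRC, CD3D, CDH5, VWF and COL1A2 did not. Library numbers split the plate: replicates 1 and 2 and controls 33 to 40 are called the low-number libraries here, and replicates 3 and 4 and controls 41 to 48 the high-number libraries. A term for this split (the number term) was significant for 3341 genes (17.2%), and the DMSO controls had a median of 12988350 counts among the low and 7014934 among the high numbers. What the numbers stand for is not given in the sources used here, so results are given without and, where it changes the call, with this term. PFDA 0.25 µM replicate 1 stood apart: it correlated with the plate's median profile at r = 0.908 across genes, while the next lowest library reached 0.971, and 934 of 7633 well-expressed genes in it lay more than 2-fold from the mean of the other 3 libraries. Solvent was confounded with chain length, because PFOA alone was set against water controls. Water and DMSO controls differed in 795 genes (4.08%), so in any comparison with PFOA the chemical and its solvent cannot be told apart.

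Few genes changed with any of the 3 chemicals. In edgeR's quasi-likelihood test with Benjamini-Hochberg adjustment (threshold 0.05), PFDA at 25 µM changed 13 genes, 2 up and 11 down, which is 0.0668% of the genes tested. PFNA at 25 µM lowered 1 gene and at 2.5 µM 1 other gene (0.00514% each), and PFOA lowered 2 genes at 0.25 µM (0.0103%). No gene was called for PFOA at 0.025, 2.5 or 25 µM, for PFNA at 0.025 or 0.25 µM, or for PFDA at 0.025 or 2.5 µM (0.0% each). In these 7 comparisons, 873 to 1806 genes had an unadjusted p under 0.05, and DESeq2 called 0 to 9 genes. PFDA at 0.25 µM gave 125 calls (0.642%), of which 0 were left without its replicate 1. A linear trend over the 4 doses was called for 3 genes with PFNA (0.0154%) and for none with PFOA or PFDA (0.0% each; 956 and 1038 genes at an unadjusted p under 0.05, and 0 in DESeq2). The mean response of the 3 chemicals at 25 µM, each against its own solvent, changed 63 genes, 16 up and 47 down (0.324%). With DESeq2's size factors in edgeR the split was 7 up and 57 down, and in DESeq2 itself 73 up and 56 down. Over the other settings tried, the count at 25 µM ran from 3 to 199 for PFDA and from 0 to 313 for PFNA. For PFOA it ran from 0 to 100 against the water controls, and was 945 against the DMSO controls. PFNA and PFDA share the 12 DMSO controls, so that their calls are not independent of each other. Where groups are said not to overlap, the share of all genes that separate in this way was not counted. For PFOA 4 libraries stand against 4 controls, where such a gap is easier to reach than against 12.

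The clearest response was a fall of AKR1C1, the aldo-keto reductase that inactivates progesterone by reducing its 20-keto group. The gene and its neighbour AKR1C2, which reduces the 3-keto group of dihydrotestosterone and related steroids, lie on chromosome 10. Their coding sequences are close to identical, so the authors' counting could have split or discarded shared reads, and the balance between them is uncertain. The 250 bases upstream of the 2 start sites are shown because they are near copies: AKR1C1 at chr10:4963165-4963414 on the plus strand and AKR1C2 at chr10:5003858-5004107 on the minus strand, both promoter sequence from RefSeq (GRCh38.p14), written 5′ to 3′, with capitals for bases that have no identical partner in the other window.
AKR1C1: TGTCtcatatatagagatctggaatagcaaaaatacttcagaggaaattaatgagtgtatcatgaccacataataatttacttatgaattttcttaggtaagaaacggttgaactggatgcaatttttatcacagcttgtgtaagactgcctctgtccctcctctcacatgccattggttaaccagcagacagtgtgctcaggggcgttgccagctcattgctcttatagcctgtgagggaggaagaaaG
AKR1C2: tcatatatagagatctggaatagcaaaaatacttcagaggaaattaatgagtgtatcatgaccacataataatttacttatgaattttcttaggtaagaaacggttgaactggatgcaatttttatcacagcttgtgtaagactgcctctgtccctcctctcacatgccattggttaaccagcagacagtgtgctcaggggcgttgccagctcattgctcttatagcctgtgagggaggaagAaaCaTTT
Aligned over 254 columns, the windows shared 245 of 246 paired bases, an identity of 96.5% over the columns, and the other columns held a base in 1 window alone. Neither held the antioxidant response element core TGACNNNGC, searched on both strands and present in 3830 of 35116 promoter windows of that length (10.9%); this says only that these letters are not in this window.

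In the DMSO controls AKR1C1 ranged from 45.4 to 86.8 CPM (counts scaled to library totals that were adjusted by edgeR's TMM factors) with a median of 60.2. PFDA at 25 µM gave 19.8, 24.5, 35 and 28.8 CPM in replicates 1 to 4, all below the lowest control. AKR1C1 fell by 1.18 on the log2 scale (SE 0.176, 95% interval -1.53 to -0.833, adjusted p 1.95e-05), with -1.47 among low-number and -0.92 among high-number libraries. The call held in each of the 14 alternatives tried. Among the low-number DMSO controls AKR1C1 was at 86.8, 70.6 and 62.5 CPM in the libraries with 13.6%, 11.1% and 11.2% mitochondrial counts. In those with 6.84%, 6.11% and 6.98% it was at 50.6, 50 and 49.8 CPM. The part of that share in the AKR1C1 differences was not tested. At 0.25 µM PFDA gave 41.6, 33.7, 32.4 and 32.6 CPM, again below every control, and AKR1C1 fell by 0.81 (SE 0.172, adjusted p 0.0102). Without replicate 1 of that dose the difference was -0.90 with an adjusted p of 0.0967. The call was also lost without the libraries over 10% mitochondrial counts (0.052) and with only the groups compared in the fit (0.084). At 0.025 and 2.5 µM the differences were -0.47 and -0.59 and were not called, with 2 of 4 libraries below the control range at each. The PFDA trend over dose was -0.19 per 10-fold step (adjusted p 0.847) and was not called.

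With PFNA, AKR1C1 lay at mean levels of 44.9, 51.6, 37.6 and 47.7 CPM from the lowest to the highest dose. No dose was called. The differences were -0.45, -0.25, -0.71 and -0.37, of which the one at 2.5 µM, with all 4 libraries below the DMSO range, had an adjusted p of 0.0976, and 0.0193 with the number term. PFOA was set against a higher baseline: the water controls held 159, 205, 169 and 183 CPM, 1.55 log2 units above DMSO (adjusted p 9.03e-16). AKR1C1 in the PFOA libraries was 85.8, 78.8, 119 and 131 CPM at 0.025 µM, 85.3, 101, 99.4 and 105 at 0.25 µM, 101, 72, 133 and 116 at 2.5 µM, and 113, 109, 164 and 139 at 25 µM. All libraries of the 3 lower doses, and 3 of 4 at 25 µM, were below the lowest water control. The differences were -0.78, -0.87, -0.75 and -0.45, with adjusted p-values of 0.0843, 0.0282, 0.112 and 0.531, and with the number term the 3 lower doses passed (0.00374, 0.000408 and 0.00299). The call at 0.25 µM was lost when any 1 of the 4 dosed replicate numbers or water control 40 was left out. Over the 3 chemicals at 25 µM the mean difference was -0.67 (SE 0.104, adjusted p 8.53e-05). PFOS, also in DMSO on this plate, held 54.4 to 72.2 CPM of AKR1C1 at 0.025 µM. Its other doses held 38.6 to 51.6 CPM at 0.25 µM, 36.8 to 61.5 at 2.5 µM and 31 to 51.7 at 25 µM. Single libraries below the DMSO range were thus not limited to the carboxylates.

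AKR1C2 behaved differently between PFNA and PFDA. The DMSO controls lay between 72.9 and 117 CPM, median 93. AKR1C2 in the PFNA libraries rose with dose, from 68.6 ± 8.24 CPM (mean ± SD, n = 4) at 0.025 µM through 74.1 ± 8.01 and 79.5 ± 10.9 to 112 ± 15.3 at 25 µM, where the libraries held 117, 126, 116 and 90.6. The trend was 0.22 per 10-fold step (SE 0.044, adjusted p 0.0159). It ran from below the controls to their upper end, so that only 2 libraries at 25 µM were above the control range and the difference there was 0.27 (95% interval 0.059 to 0.487, adjusted p 0.319). Without replicate 1, 2 or 3 the adjusted p of the trend was 0.289, 0.349 and 0.128. PFDA showed 76, 57, 67 and 49.4 CPM at 25 µM, 3 of them below the control range. AKR1C2 fell by 0.59 there (SE 0.117, adjusted p 0.00694), a call lost without replicate 2 (0.107) or replicate 4 (0.258). The lower PFDA doses gave -0.35, -0.28 and -0.42, and PFOA gave -0.30, -0.21, -0.41 and -0.28 against water controls of 326, 279, 413 and 423 CPM; none of these passed.

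**Figure D1:**
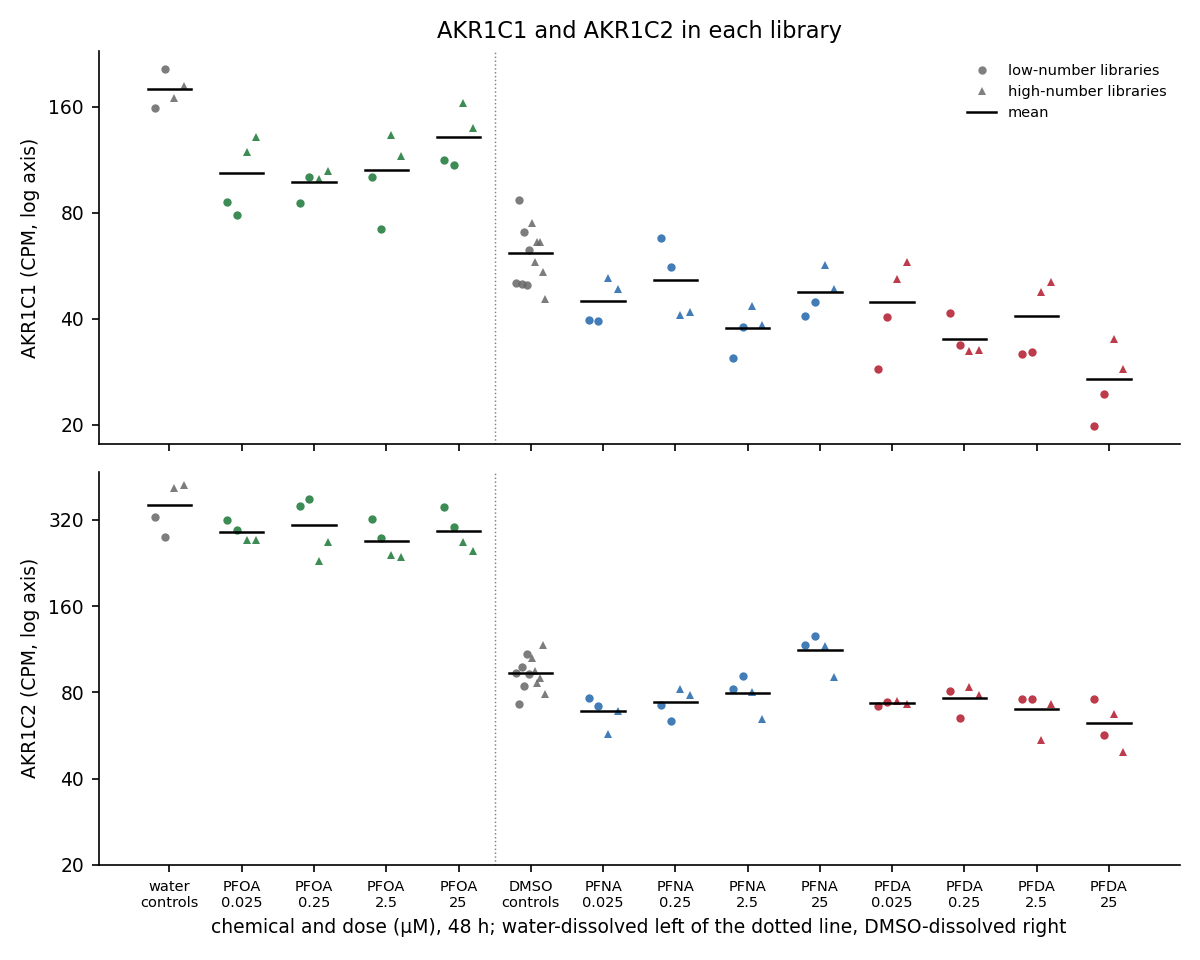
AKR1C1 and AKR1C2 levels (CPM, log axis) in each library by chemical and dose in µM, beside the solvent controls. Circles are low-number libraries, triangles high-number libraries, and lines group means. AKR1C1 in PFDA at 25 µM lay at 19.8 to 35 CPM, below all DMSO controls, and AKR1C2 means rose from 68.6 to 112 CPM with PFNA dose.

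Among the other aldo-keto reductases the pattern was weaker. AKR1C3, which makes testosterone from androstenedione, was at 81.4, 70.3, 79.9 and 67.6 CPM with PFDA at 25 µM against 75 to 115 in DMSO, a difference of -0.31 (adjusted p 0.213). AKR1B10 was near the detection limit, with 0 to 1.69 CPM in DMSO. Of 12 listed family members 9 were tested. PFDA at 25 µM lowered 2 of them, AKR1C1 and AKR1C2 (0.0668% of all genes were called), 8 of 9 estimates were below 0, and their median was -0.58 against -0.02 for all genes. With PFNA 0 were called, 8 of 9 were above 0 and the median was 0.11, and with PFOA 0 were called, 6 of 9 were below 0 and the median was -0.24. Of the 22 NRF2 target genes 0 were called for any of the 3 chemicals at 25 µM, and their medians were -0.1 for PFOA, -0.0 for PFNA and -0.06 for PFDA. Their summed level was 11900 to 12400 CPM with PFDA, below the 12600 to 14800 CPM of DMSO without overlap, and 12000 to 13700 CPM with PFNA. With PFOA it was 12100 to 13200 CPM against 13000 to 13800 in water. These sums follow their most abundant members, while the medians weigh every gene alike. NQO1, a quinone reductase and standard NRF2 target, differed by -0.17 with PFOA, -0.06 with PFNA and -0.04 with PFDA, all uncalled.

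The other genes that PFDA lowered at 25 µM included several of secretion and keratinised epithelium. SLPI, a secreted inhibitor of leukocyte proteases, was at 11.6, 9.11, 9.23 and 7.08 CPM against 13.2 to 29.9 (median 22.3) in DMSO. The groups did not overlap. SLPI fell by 1.26 (SE 0.204, adjusted p 0.000125) and remained called in the 13 alternatives that gave it an adjusted p. DESeq2 gave it none and did not call it. KRT17, a keratin of basal and stressed epithelium, was at 45.5, 62.5, 58.3 and 45.9 CPM against 77.1 to 139 (median 93), also without overlap. It fell by 0.89 (SE 0.182, adjusted p 0.00889), and by 0.57 in the mean of the 3 chemicals (adjusted p 0.00604); without replicate 4 the PFDA call was lost (0.0741).

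S100P, a calcium-binding protein, fell by 1.34 (SE 0.306, adjusted p 0.0447) from a control range of 6.66 to 31 CPM (median 16.2) to 3.19, 5.41, 8.14 and 9.56, with 2 libraries below the controls and 2 within their range. The call was lost without any 1 of the replicates (adjusted p 0.0741 to 0.245). Among high-number libraries alone the S100P difference was -0.59, with an adjusted p of 0.647. Its relatives S100A8 and S100A9, the subunits of calprotectin, were at 14.3, 7.26, 9.57 and 10.6 CPM and at 27.5, 15.6, 12.8 and 6.42 CPM. The DMSO ranges were wide, 7.89 to 74 and 9.81 to 97.5 CPM, and overlapped with PFDA. Their differences of -1.66 and -1.52 had adjusted p-values of 0.0672 and 0.076, and 0.011 and 0.00736 with the number term. Over 14 alternatives the differences ran from -2.12 to -0.44 for S100A8 and from -1.94 to -0.89 for S100A9. S100A8 passed under 5 of these and S100A9 under 3.

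CDKN1C, the imprinted cell cycle inhibitor p57, was at 4.3, 6.69, 5.04 and 0.657 CPM with PFDA at 25 µM, below the DMSO range of 6.98 to 27.4 (median 12.7). It fell by 1.80 (SE 0.364, adjusted p 0.00821), with -0.89 among low-number and -2.95 among high-number libraries. Replicate 4 was the lowest library, and the call was lost without it (0.258), without replicate 1 (0.0668) and after thinning all libraries to equal totals (0.0542). GRINA, a membrane protein of the endoplasmic reticulum and Golgi, was at 347, 302, 290 and 268 CPM against 314 to 509 (median 414), so that 3 libraries lay below all controls. It fell by 0.51 (SE 0.099, adjusted p 0.00462), a call lost without replicate 2 (0.0507), 3 (0.0848) or 4 (0.146).

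HSD17B2, which oxidises estradiol to the weaker estrone, fell by 0.71 (SE 0.152, adjusted p 0.0173) to 17.5, 16.2, 28.8 and 20.4 CPM from a control range of 24.7 to 45.1, with 3 libraries below it. The difference was -1.13 among low-number and -0.26 among high-number libraries. GSK3A, a kinase of glycogen metabolism and Wnt signalling, was at 44.9, 42.7, 32.9 and 53.9 CPM against 50.2 to 87.6, and fell by 0.68 (SE 0.153, adjusted p 0.0402). NUMBL, a Numb-like endocytic adaptor, was at 9.72, 13.8, 12.8 and 13.5 CPM against 17.4 to 28.4, without overlap, and fell by 0.88 (SE 0.202, adjusted p 0.0483). Each of these 3 calls was lost without at least 3 of the 4 replicates in turn, HSD17B2 with adjusted p-values of 0.206, 0.207 and 0.099 without replicates 1, 2 and 4, GSK3A with 0.102, 0.107 and 0.18 without 1, 2 and 3, and NUMBL with 0.0878 to 0.245 without any 1. RPS15AP1, a ribosomal protein pseudogene, was named after its values were seen. It fell by 3.05 (SE 0.573, adjusted p 0.00272) from 1.23 to 5.41 CPM in DMSO to 0.0797, 0.569, 0.504 and 0.292, and its reads may be shared with its parent gene.

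The 2 genes that rose were AXL and DLG3. AXL, the receptor tyrosine kinase for GAS6, was at 367, 359, 335 and 357 CPM with PFDA at 25 µM, all above the DMSO range of 251 to 301 (median 286). It rose by 0.33 (SE 0.062, adjusted p 0.00272), which was lost without replicate 2 (0.052) or 4 (0.0741). PFOA at 25 µM gave 273, 286, 240 and 297 CPM against 228, 205, 234 and 218 in water, a difference of 0.31 without overlap but uncalled (0.422), and PFNA gave 0.15 (0.366). DLG3, a membrane scaffold protein, was at 18.2, 18.1, 14.9 and 15.7 CPM against 3.58 to 15.1, with 3 libraries above the controls, and rose by 0.95 (SE 0.203, adjusted p 0.0173). The DLG3 call was lost without replicate 1 (0.102), 2 (0.135) or 4 (0.0741) and without the 5 of the 64 libraries that had over 10% mitochondrial counts (0.257), while 2 such libraries of another chemical of the plate stayed in the fit.

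**Figure D2:**
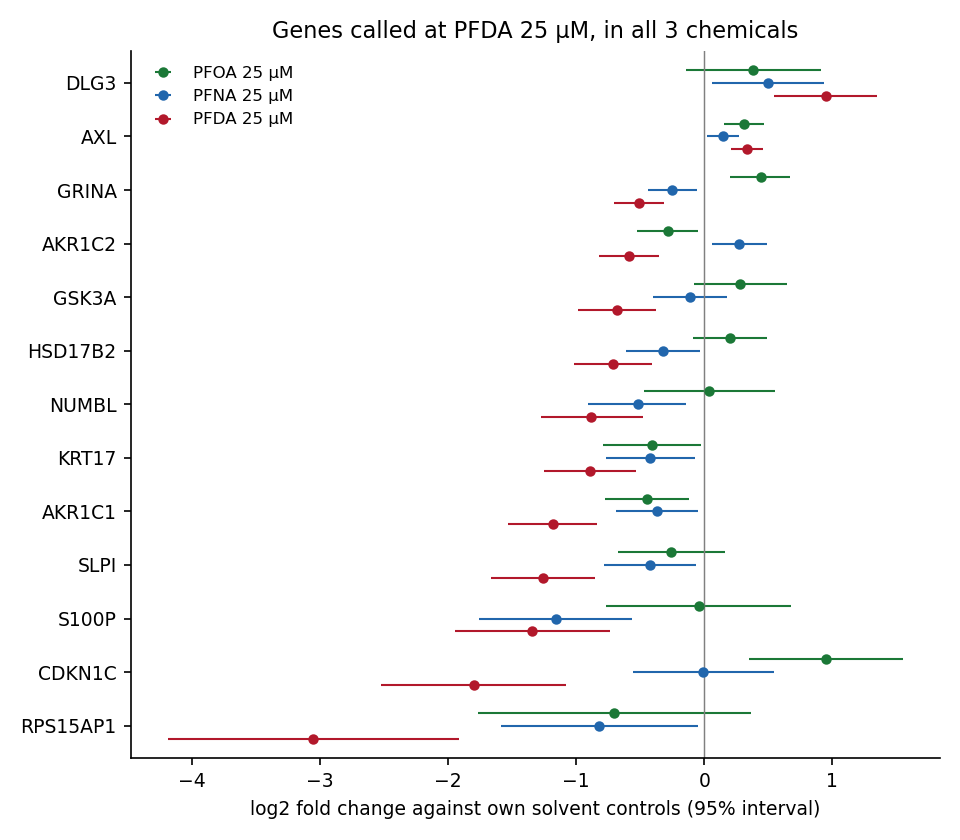
Log2 difference from the solvent controls at 25 µM, with its 95% interval, for the 13 genes called with PFDA, in each of the 3 chemicals (4 libraries each against 12 DMSO or 4 water controls). AKR1C1 was below 0 in all 3, whereas GRINA and CDKN1C were below 0 with PFDA and above 0 with PFOA.

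Chain length was compared in 12 tests, 3 pairs of chemicals at 4 matched doses, each as the difference between the 2 responses to the matching solvent controls, with p-values adjusted over all genes and all 12 tests together. At 25 µM, PFDA and PFOA, 2 carbons apart, differed in 2 genes (0.0103%), PFDA and PFNA, 1 carbon apart, in 1 gene (0.00514%), and PFNA and PFOA in 0 (0.0%). No pair differed in any gene at 0.025, 0.25 or 2.5 µM (0.0% in each of the 9 tests). Over the 10 tests with 0 calls, 788 to 1958 genes had an unadjusted p under 0.05, and DESeq2 called 0 to 19. These counts do not show that the chemicals act alike: for the 7633 genes whose average level was 4 log2 CPM or more, the median 95% interval at 25 µM reached 0.282 log2 units either side of the difference between PFDA and PFNA, and 0.375 and 0.376 either side of the differences from PFOA. The differences from PFOA also carry the spread of the 4 water and 12 DMSO controls. Between PFDA and PFNA the shared DMSO controls cancel.

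AKR1C2 was the gene that separated PFDA from PFNA at 25 µM: the difference was -0.86 (SE 0.136, 95% interval -1.131 to -0.59, adjusted p 0.00158), with -0.87 and -0.85 among low-number and high-number libraries. All 4 PFDA libraries (49.4 to 76 CPM) were below all 4 PFNA libraries (90.6 to 126 CPM). At 0.025, 0.25 and 2.5 µM the difference was 0.09, 0.05 and -0.18. Without replicate 2 the adjusted p at 25 µM was 0.0718. The same pair differed by -0.81 in AKR1C1 (95% interval -1.226 to -0.4), which did not pass (0.244). SLPI differed by -0.83 (95% interval -1.323 to -0.346, adjusted p 0.414).

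GRINA and CDKN1C separated PFDA from PFOA. PFOA at 25 µM gave GRINA levels of 434, 483, 440 and 381 CPM against 329, 283, 381 and 292 in water, 3 of them above all controls and the fourth level with the highest control, a difference of 0.44 that was not called (0.436). The difference between the PFDA and PFOA responses was -0.95 (SE 0.154, 95% interval -1.253 to -0.642, adjusted p 0.00169), with -0.91 and -0.97 among low-number and high-number libraries. PFNA stood between them at -0.25, with a PFNA-to-PFOA difference of -0.69 (95% interval -0.99 to -0.382, adjusted p 0.16). For CDKN1C the PFOA libraries held 23.1, 22.5, 31.4 and 38.5 CPM against 15, 13.1, 21.2 and 9.37 in water, all above, and the PFDA-to-PFOA difference was -2.75 (SE 0.476, 95% interval -3.693 to -1.805, adjusted p 0.00633). With PFNA, CDKN1C was at 12.3, 8.56, 21.7 and 16.8 CPM, a difference of -0.01 from DMSO. Both calls depended on water control 40: without it each had an adjusted p of 0.0524, and that of CDKN1C was also lost without replicate 1 (0.0567) or 4 (0.169).

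PFNA lowered PLXNA2, a plexin that receives semaphorin guidance signals, in a graded way. The DMSO range was 56.7 to 95.6 CPM (median 73.6). PLXNA2 means over the 4 doses were 75.6, 77.6, 58.3 and 45.5 CPM, and the libraries at 25 µM, with 41.2, 46.5, 43.8 and 50.4, were all below the controls. It fell by 0.72 at 25 µM (SE 0.137, adjusted p 0.0149) and by 0.27 per 10-fold step (SE 0.052, adjusted p 0.0159). Leaving out replicate 1, 2 or 3 ended the call at 25 µM (0.22, 0.0849 and 0.0997), and leaving out 1 or 2 that of the trend (0.29 and 0.349). PFDA and PFOA gave -0.22 and 0.11 at that dose.

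RUSC2, a RUN and SH3 domain protein of vesicle transport, fell by 0.36 per 10-fold step of PFNA (SE 0.074, adjusted p 0.0302). Its means were 34.4 ± 5.89, 28.7 ± 3.91, 19.2 ± 3.48 and 17.8 ± 6.04 CPM (SD, n = 4) against 18.7 to 33.5 in DMSO, so that the slope began above the control median of 27. Without any 1 replicate the RUSC2 trend had an adjusted p of 0.0563 to 0.29. TNKS1BP1, a tankyrase-binding protein named after its values were seen, was at 22.1, 24.1, 22.5 and 28.1 CPM with PFNA at 2.5 µM, below the DMSO range of 33.1 to 51.5. It fell by 0.77 (SE 0.133, adjusted p 0.00136), and differed by -0.51 at 25 µM (0.107).

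With the number term, PFNA at 25 µM had 118 calls, 22 up and 96 down (0.606%), PFDA 95, 20 up and 75 down (0.488%), and PFOA 0 (0.0%). Glycolysis and hypoxia genes were among those that did not pass the main test for PFNA and passed with the number term, and SLC2A1 passed under 4 of 14 alternatives in all. CA9, a carbonic anhydrase of the cell surface, was at 6.62, 10.1, 4.55 and 4.44 CPM against 0 to 3.79 in DMSO, without overlap. Its difference was 1.91, with an adjusted p of 0.0817, and 1.96 with 0.00488 in the fit with the number term. BNIP3, a mitophagy receptor, was at 155, 142, 124 and 127 CPM against 75.7 to 127, a difference of 0.46 (0.144, and 0.00488 with the number term). SLC2A1, the glucose transporter GLUT1, was at 70.3, 58.4, 46.2 and 53.2 CPM against 26.3 to 53.8, a difference of 0.54 (0.175, and 0.0118). LDHA, lactate dehydrogenase A, was at 4340, 4040, 3620 and 3520 CPM against 3030 to 3650, a difference of 0.25 (0.184, and 0.00711). In BNIP3, SLC2A1 and LDHA the 2 low-number libraries were above all controls and the high-number ones overlapped with them. Those 2 libraries had 5.81% and 6.17% mitochondrial counts, against a median of 9.05% in the low-number DMSO controls, and PFNA at 25 µM had 0 calls without the 5 libraries over 10%. The part of this share in the PFNA results was not tested.

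Hypoxia-inducible factors bind sequences such as ACGTGC. The 250 bases upstream of CA9 (chr9:35673678-35673927, plus strand) and BNIP3 (chr10:131981924-131982173, minus strand; RefSeq, GRCh38.p14) are shown because both hold that core, in capitals, read 5′ to 3′.
CA9: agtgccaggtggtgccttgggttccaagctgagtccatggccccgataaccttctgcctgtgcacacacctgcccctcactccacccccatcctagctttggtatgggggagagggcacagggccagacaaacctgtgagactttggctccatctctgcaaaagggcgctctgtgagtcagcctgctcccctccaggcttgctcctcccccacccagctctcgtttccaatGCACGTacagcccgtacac
BNIP3: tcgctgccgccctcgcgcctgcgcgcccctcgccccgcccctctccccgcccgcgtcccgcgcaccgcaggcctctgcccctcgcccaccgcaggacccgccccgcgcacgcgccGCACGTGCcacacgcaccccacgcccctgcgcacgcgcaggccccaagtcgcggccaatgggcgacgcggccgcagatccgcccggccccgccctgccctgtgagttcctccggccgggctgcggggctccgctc
The core, searched on both strands, was found in 2048 of 35116 promoter windows of this length (5.83%). CA9 held it at -19 to -14 on the reverse strand, and BNIP3 at -135 to -130 and, overlapping it, at -133 to -128 on the opposite strand. LDHA held 2 copies and SLC2A1 none within this window. A match is a description of the sequence and not evidence of binding in these cells.

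Of 26 listed glycolysis and hypoxia genes, 0 were called with PFNA at 25 µM, 4 passed with the number term, 20 were above 0, and the median was 0.15 against -0.02 for all genes. Dose means of CA9 were 2.88, 2.53, 2.74 and 6.44 CPM and those of BNIP3 102, 100, 129 and 137. PFDA gave 14 of 26 above 0 (median 0.06) and PFOA 13 (median -0.01), with 0 called in each. CA9 differed by -2.14 between PFDA and PFNA (adjusted p 0.291), so a difference between these chemicals was not shown. The water controls already stood higher, with means of 5.87 CPM for CA9 and 143 for BNIP3.

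Matrix and integrin genes lay below their controls with PFNA, without a call in the main test. FN1, fibronectin, was at 213, 219, 212 and 180 CPM against 196 to 450 in DMSO, a difference of -0.51 (adjusted p 0.0654, and 0.00528 with the number term). LAMA5, the laminin alpha-5 chain of basement membrane, was at 111, 105, 154 and 149 CPM against 154 to 271, at or below the lowest control, a difference of -0.66 (0.0992, and 0.00488). Among the low-number DMSO controls LAMA5 moved with the mitochondrial share, at 262, 228 and 271 CPM in the 3 libraries with 13.6%, 11.1% and 11.2%, and at 165, 154 and 156 CPM in those with 6.84%, 6.11% and 6.98%. The part of that share in the LAMA5 difference was not tested. ITGA3, its integrin receptor subunit, was at 175, 185, 194 and 208 CPM against 200 to 282, and differed by -0.36 (0.0817, and 0.00537). CCN2, the connective tissue growth factor and a target of YAP, was at 49.2, 68.9, 68.5 and 79.1 CPM against 78.2 to 126, and differed by -0.67 (0.172, and 0.00488). Of 26 matrix genes tested of 28 listed, 24 were below 0 (median -0.26), 0 were called and 4 passed with the number term. PFDA had 19 of 26 below 0 (median -0.13) and PFOA 9 of 26 (median 0.12). LAMA5 was the only member that fell in the mean of the 3 chemicals, by 0.48 (adjusted p 0.0279), with -0.69 for PFDA and -0.07 for PFOA. The PFNA-to-PFOA difference was largest in FN1 among these 4, at -0.83 (adjusted p 0.0984, and 0.0252 with the number term).

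Other PFNA genes that did not pass the main test passed with the number term and under 1 or more other alternatives. STC1, the hormone stanniocalcin-1, and HES1, a Notch-driven repressor, had differences of 0.60 (0.0118) and 0.57 (0.0416), and each passed under 2 of 14 alternatives. CRBN, the substrate receptor of a ubiquitin ligase, and WDR54 differed by 0.53 and 0.50. OGFR, the opioid growth factor receptor, was at 9.3, 10.9, 12.5 and 16 CPM, all below the DMSO range of 16.3 to 37.9, a difference of -1.15 (0.113, and 0.00488). HSPG2, the basement membrane proteoglycan perlecan, differed by -1.01 (0.125, and 0.00537), TOR4A by -1.10 (0.0992, and 0.00528) and PHRF1 by -0.98 (0.116, and 0.00711). OGFR and HSPG2 passed under 4 of 14 alternatives, TOR4A and PHRF1 under 5. SF3A2, a splicing factor subunit, differed by -1.04 with PFNA and -1.07 with PFDA (0.0282 and 0.023 with the number term), whereas PFOA gave 0.73. The water controls were already 1.24 below DMSO for SF3A2.

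**Figure D3:**
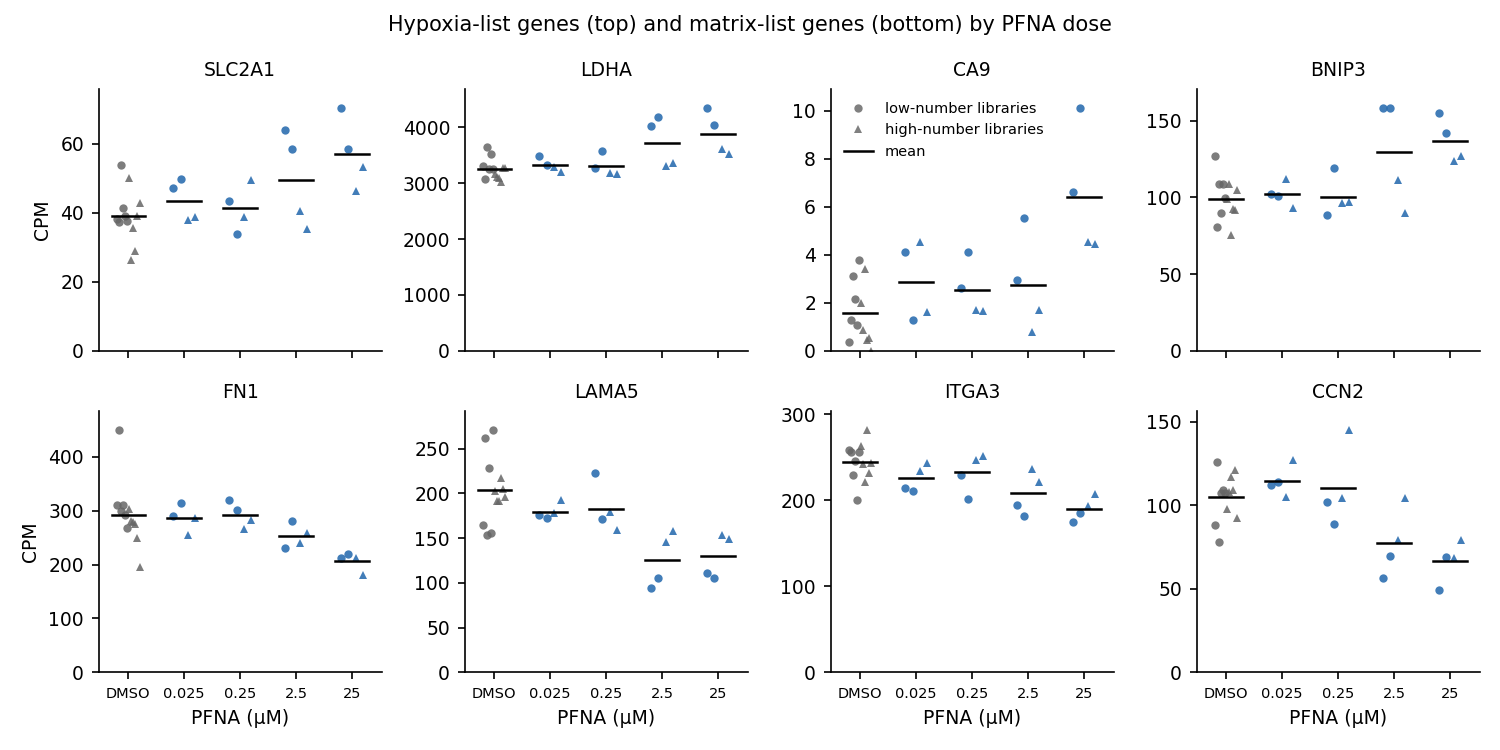
CPM of 4 glycolysis and hypoxia genes (SLC2A1, LDHA, CA9, BNIP3) and 4 matrix-related genes (FN1, LAMA5, ITGA3, CCN2) in every PFNA library by dose in µM, beside the 12 DMSO controls. Circles are low-number libraries, triangles high-number libraries, and lines group means. At 25 µM the 4 CA9 values, 4.44 to 10.1, lay above all controls.

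No gene was called for PFOA at 25 µM in edgeR, while DESeq2 called 2, and edgeR without the low-count filter 63. At 0.25 µM PFOA lowered 2 genes in edgeR, AKR1C1, described above, and FGFBP1, a secreted carrier that releases fibroblast growth factors from the matrix. DESeq2 also called 2 genes there, of which 0 were shared with edgeR's, and 0 were called after thinning or without the 5 libraries over 10% mitochondrial counts. FGFBP1 was at 31.2, 36.8, 24.7 and 32.4 CPM against 55.9, 88.9, 56 and 53.6 in water, without overlap, and fell by 1.04 (SE 0.21, adjusted p 0.0282). The differences at 0.025, 2.5 and 25 µM were -0.68 (0.607), -0.89 (0.118) and -0.71 (0.436). At 25 µM the libraries held 24.7, 27.7, 55.3 and 52.8 CPM, so that the low-number libraries were below the controls and the high-number ones level with them (-1.48 and -0.01). PFDA at 0.25 µM also lowered FGFBP1, by 0.90 (SE 0.231, adjusted p 0.0384), to 12.2, 13.5, 15.4 and 10.5 CPM, within the DMSO range of 10.3 to 36.1. Without replicate 1 of that dose this had an adjusted p of 0.611.

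The PPAR pathway showed no called gene at 25 µM. Of the receptors and their partners, 11 of 12 were tested and 0 were called, with medians of 0.08 for PFOA, -0.11 for PFNA and 0.01 for PFDA. PPARA, the receptor of fasting and fatty acid oxidation, was at 8.96, 12.8, 11 and 10.3 CPM with PFOA against 5.23, 7.13, 8.19 and 6.1 in water. All 4 were above the controls, but the difference of 0.73 was uncalled (0.488). It was -0.12 with PFNA and 0.18 with PFDA. PPARD, the broadly expressed form, was at 31.8, 28.7, 24.7 and 31.4 CPM with PFNA against 14.5 to 27.3, a difference of 0.39 (95% interval 0.09 to 0.682, adjusted p 0.31). PPARG, the fat cell form, differed by -0.34, 0.28 and 0.22 with PFOA, PFNA and PFDA.

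Of the PPAR target genes, 21 of 30 listed were tested and 0 were called for any chemical. Their summed level was 2400 to 2590 CPM with PFOA against 2200 to 2320 in water, without overlap. With PFNA it was 2540 to 2830 CPM and with PFDA 2510 to 2680, against 2360 to 2650 in DMSO, with overlap. Such sums follow their most abundant members. PLIN2, the lipid droplet coat protein, held 56 counts over all 96 libraries of the plate and was not tested. The median was 0.12 with PFOA (14 of 21 above 0), 0.08 with PFNA (14 above 0) and -0.03 with PFDA (7 above 0), beside 0.0, -0.02 and -0.02 for all genes. PDK4, the kinase that blocks pyruvate oxidation and a sensitive PPAR target, was at 18.3, 20.9, 28.3 and 39.4 CPM with PFOA against 17.6, 14.9, 16.5 and 17.2 in water. Every PFOA library was above every control, the spread was wide, and the difference of 0.68 (SE 0.218, 95% interval 0.249 to 1.113) did not pass (0.436). With PFNA and PFDA it was 0.02 (95% interval -0.333 to 0.382) and 0.05 (-0.299 to 0.408). The PDK4 responses of PFDA and PFOA differed by -0.63 (95% interval -1.185 to -0.067, adjusted p 0.755), so no difference by chain length was shown.

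ANGPTL4, a lipoprotein lipase inhibitor and PPAR target, was at 782, 702, 613 and 570 CPM with PFOA against 516 to 577 in water. PFNA gave 909, 887, 622 and 771 CPM, and PFDA 802, 937, 795 and 819, against 614 to 855 in DMSO. The differences were 0.25, 0.16 and 0.23, and their mean was 0.22 (95% interval 0.103 to 0.328, adjusted p 0.0548, and 0.00934 with the number term). CPT1A, which carries fatty acids into mitochondria and is a PPAR target in liver, lay in the other direction. It was at 13.9, 17.5, 22.8 and 23.4 CPM with PFNA and 13.8, 12.2, 24.5 and 23.1 with PFDA against 16.3 to 56, and the differences from PFOA to PFDA were -0.37, -0.72 and -0.77. Their mean of -0.62 had an adjusted p of 0.0731, and 0.0181 with the number term. The high-number CPT1A libraries of PFNA and PFDA lay within the control range. Over the alternatives the differences ran from -0.92 to 0.16 with PFOA, -1.09 to -0.29 with PFNA and -1.35 to -0.24 with PFDA.

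Enzymes of fatty acid oxidation followed, and none of those named was called. ACADVL, the very-long-chain acyl-CoA dehydrogenase, differed by 0.11, 0.01 and -0.03 with PFOA, PFNA and PFDA, and its 95% intervals reached no further than -0.158 and 0.274. HADHA, of the mitochondrial trifunctional protein, differed by 0.12, 0.08 and -0.03, and CAT, the peroxisomal catalase, by 0.13, 0.15 and -0.06. All 22 listed peroxisome genes were tested and 0 were called, with medians of 0.1, 0.08 and 0.02. Fatty acid carriers (12 of 16 tested, 0 called) had medians of 0.01, -0.15 and -0.18.

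Sterol and fatty acid synthesis genes gave 0 calls as well. Of 24 sterol genes tested of 25 listed, 20 were above 0 with PFOA (median 0.13), 16 with PFNA (0.02) and 12 with PFDA (-0.0). HMGCS1, which commits carbon to sterols, differed by 0.14, 0.12 and 0.02. MVD, mevalonate diphosphate decarboxylase, did not pass the main test with PFNA and passed with the number term, at 114, 94.2, 98.1 and 99.3 CPM against 104 to 167 (-0.37, 0.0422). SCD, the fatty acid desaturase, differed by 0.05, 0.02 and 0.13.

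**Figure D4:**
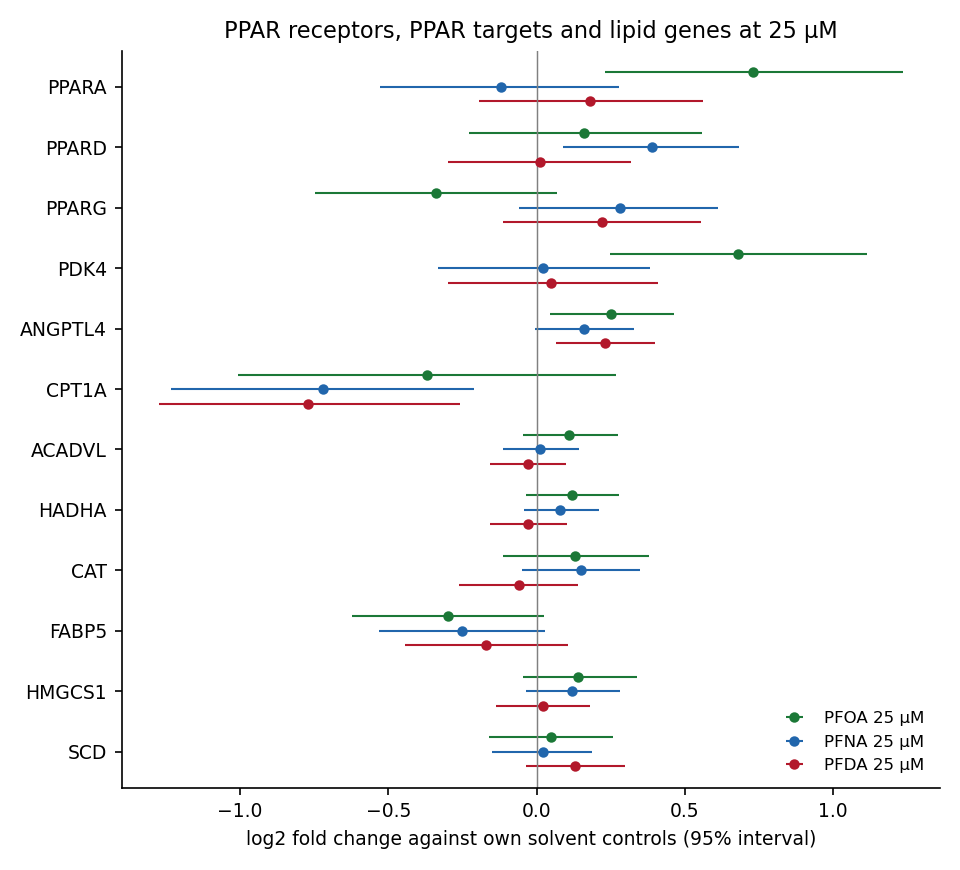
Log2 difference from the solvent controls at 25 µM with its 95% interval for 12 PPAR and lipid genes, in PFOA, PFNA and PFDA (4 libraries each against 4 water or 12 DMSO controls). PDK4 and PPARA stood at 0.68 and 0.73 with PFOA and near 0 with PFDA, and none of the 12 was called.

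Mitotic genes lay slightly above their controls with PFDA at 25 µM. All 26 listed genes were tested, none was called, all 26 were above 0 (0.06 to 0.63), 18 had an unadjusted p under 0.05 (1934 of all 19468 genes did, 9.93%), and the median was 0.21 against -0.02 for all genes. Their summed level was 5280 to 5580 CPM in the 4 PFDA libraries and 4450 to 5120 CPM in DMSO, without overlap. MKI67, the proliferation marker Ki-67, was at 299, 289, 285 and 288 CPM against 210 to 268, a difference of 0.25 (95% interval 0.122 to 0.372, adjusted p 0.0804, and 0.0377 with the number term). DLGAP5, a spindle protein, was at 99.9, 102, 116 and 124 CPM against 62.9 to 96.5, a difference of 0.36 (0.0582, and 0.0168). TOP2A, the topoisomerase of chromosome separation, was at 341, 314, 323 and 365 CPM against 259 to 310, above all controls, with a difference of 0.22 (0.169).

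With PFDA the point furthest from 0 belonged to the thinly counted PRC1, a midzone protein. NUSAP1, a spindle protein, was also thinly counted. PRC1 was at 0 to 3.85 CPM in DMSO and NUSAP1 at 0 to 3.06, and their 95% intervals with PFDA ran from -0.094 to 1.347 and from -1.555 to 1.743.

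With PFNA 20 of the 26 mitotic genes were above 0 (median 0.08) and their sum was 4770 to 5370 CPM. PFOA had 9 above 0 (median -0.07) and a sum of 3880 to 4340 CPM against 4080 to 4300 in water. MKI67 differed by 0.25 between PFDA and PFNA (95% interval 0.092 to 0.401, adjusted p 0.517), so that no difference between chain lengths was shown for it. DNA replication genes, 26 of 26 tested and 0 called, had a median of 0.16 with PFDA and 0.03 with each of the others. RRM2, a ribonucleotide reductase subunit, did not pass the main test with PFDA and passed with the number term (0.23, 0.0498). In bulk libraries a larger share of dividing cells and more mitotic RNA per cell cannot be told apart.

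**Figure D5:**
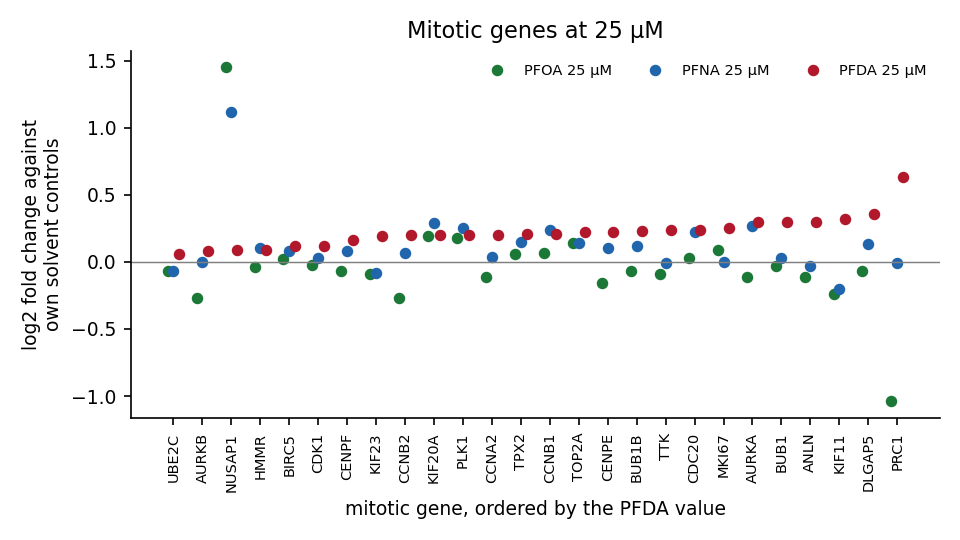
Points are the log2 difference from the solvent controls at 25 µM for the 26 mitotic genes in PFOA, PFNA and PFDA. The number above 0 was 9, 20 and 26, and the medians were -0.07, 0.08 and 0.21; none was called.

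Genes of squamous and basal epithelium lay lower with PFDA and PFNA. Of 26 squamous differentiation genes 15 were tested. With PFDA at 25 µM 1 (KRT17) fell (0.0668% of all genes were called) and 13 were below 0, with a median of -0.43. PFNA and PFOA had 0 called, 13 and 11 below 0 and medians of -0.71 and -0.33. The squamous genes summed to 704 to 1010 CPM with PFDA and 761 to 1080 with PFNA, against 980 to 1380 in DMSO, and to 1260 to 1870 CPM with PFOA against 1650 to 2110 in water, all with overlap. In the mean of the 3 chemicals, where 0.324% of all genes were called, 3 fell. These were KRT17, S100A8 (-0.98, adjusted p 0.0451) and KRT6A, a keratin of wounded epithelium (-0.35, adjusted p 0.0308). S100A8 passed under 8 of 17 alternatives in that mean. Its difference was -0.39 among high-number libraries, and -0.56 (0.664) without the libraries over 10% mitochondrial counts. Of 12 basal breast markers 11 were below 0 with PFDA (median -0.4, KRT17 called), and their summed level was 1670 to 2290 CPM against 2110 to 3010 in DMSO, with overlap. With PFNA the basal markers summed to 1870 to 2460 CPM (median difference -0.15) and with PFOA to 2390 to 3610 CPM (-0.05), the latter against 3130 to 4360 in water, again with overlap. The 7 luminal markers tested of 12 summed to 772 to 984 CPM with PFDA and 642 to 917 in DMSO. Fibroblast markers summed to 36.8 to 44.8 CPM with PFDA and 39.4 to 70.8 in DMSO. With PFOA they summed to 92.8 to 155 CPM and in water to 88.2 to 105. What part these marker levels have in the gene results was not tested.

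The mean response of the 3 chemicals at 25 µM included chaperones of the endoplasmic reticulum, which fold secreted proteins. Of 17 listed and tested, 2 rose (0.324% of all genes were called in that mean): PDIA3, a disulfide isomerase, by 0.30 (SE 0.066, adjusted p 0.0272) and CALR, calreticulin, by 0.20 (0.0451). No single chemical gave a call, but 14, 14 and 15 of 17 were above 0 with PFOA, PFNA and PFDA, with medians of 0.18, 0.15 and 0.18. PDIA3 was at 801, 841, 600 and 613 CPM with PFOA against 638, 523, 579 and 569 in water. With PFNA it was at 825, 774, 626 and 598 CPM and with PFDA at 751, 711, 653 and 608, against 426 to 702 in DMSO. The mean difference was 0.50 among low-number and 0.08 among high-number libraries.

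Other genes raised in that mean were ERLIN1, a lipid raft protein of the endoplasmic reticulum (0.30, adjusted p 0.0272), ZMPSTE24, the protease that matures lamin A (0.30, 0.0367), AFTPH (0.34, 0.0487, and 0.0582 with the other scaling), DDX20, of the SMN complex (0.34, 0.0462, and 0.0559 with the other scaling), DLG3 (0.61, 0.0396) and AXL (0.26, 0.000115), the last named after its values were seen. ERLIN1 was above its controls in every PFOA library, 106 to 135 CPM against 84.2 to 100, and at 116 to 141 CPM with PFNA and 122 to 137 with PFDA against 83.7 to 124. Genes that fell included SLPI (-0.65, 0.00453), PTBP2, a neural splicing regulator (-0.68, 0.0435), MTRNR2L8, a copy of mitochondrial ribosomal RNA sequence (-1.04, 0.0396), the ferritin heavy chain FTH1 (-0.20, 0.0486) and AREG, the EGF receptor ligand amphiregulin (-0.37, 0.0328). MTRNR2L8 shares its sequence with mitochondrial RNA, so its count is uncertain. Among the high-number libraries alone the mean differences were 0.05 for ZMPSTE24, 0.2 for ERLIN1, 0.18 for DDX20, -0.23 for PTBP2 and -0.24 for MTRNR2L8. For AFTPH, DLG3 and SLPI they were 0.42, 0.47 and -0.61. AREG with PFOA was at 650, 502, 707 and 548 CPM against 795, 950, 761 and 759 in water, without overlap. The set depended on few libraries: without the 5 of the 64 libraries over 10% mitochondrial counts 3 of the 63 genes remained, without water control 40 there were 6 calls, and without replicate 1 or 2 there were 4 and 3.

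PFDA genes that did not pass the main test at 25 µM and passed with the number term, among other alternatives, included ARHGAP29, a GTPase-activating protein (0.58, adjusted p 0.0605, and 0.0258 with the number term), PLCB4, a phospholipase C (0.65, 0.0669, and 0.0232), PI4K2A, a phosphatidylinositol kinase (0.50, 0.076, and 0.0362), TXNDC9 (0.41, 0.0669, and 0.00914) and P4HA1, a collagen prolyl hydroxylase (0.40, 0.139, and 0.037). P4HA1 was at 89.3, 93.5, 79 and 68 CPM against 40.7 to 73.8 in DMSO. The first 3 libraries were above all controls and the fourth was within their range.

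The 125 calls of PFDA at 0.25 µM, 101 up and 24 down, rested on the library that stood apart. H4C3, a replication-dependent histone, was at 1020, 400, 376 and 420 CPM against 253 to 578 in DMSO; its difference of 0.61 (adjusted p 0.0167) became 0.14 (0.836) without replicate 1. CCDC34 was at 45.2, 16.4, 20.5 and 19.3 CPM against 12.5 to 20.8, and FUNDC1, a mitophagy receptor, at 42, 23.3, 17.6 and 18.3 against 8.63 to 21.5. In a few genes the other libraries also stood away from the controls. TMEM98 was at 51.6, 35.7, 37.8 and 36.3 CPM, all above the DMSO range of 17.9 to 31.9 (0.62, adjusted p 0.00741), PHF10, a chromatin remodelling subunit, at 39.7, 21.8, 24.9 and 26.2 against 10.8 to 24 (0.78, 0.00741), and MIR205HG, the host transcript of an epithelial microRNA, at 97, 91.1, 102 and 114 against 117 to 274, all below (-0.79, 0.0292). MICAL1, an actin oxidase, was at 8.46, 17.5, 10.3 and 17.3 CPM against 16.5 to 34.4 (-0.83, 0.0102), and VPS11, of the endosomal tethering complexes, at 12, 28.2, 20.6 and 12 against 24.7 to 38.5 (-0.65, 0.0418). Without replicate 1 of that dose 0 of the 125 were called. With only PFDA 0.25 µM and the DMSO controls in the fit, 0 were called.

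The remaining pathway lists held 0 called genes in each of the 3 chemicals at 25 µM: p53 targets (19 of 19 tested), ATF4 targets of the amino acid stress response (22 of 22), heat shock genes (13 of 13), interferon-stimulated genes (18 of 20), inflammatory genes (16 of 20), estrogen receptor genes and targets (12 of 16), AhR targets (7 of 8) and the xenobiotic CAR and PXR targets (3 of 15). Inflammatory genes lay below 0 in 14 of 16 with PFNA (median -0.18), against 8 of 16 with PFDA and 9 of 16 with PFOA. The p53 targets lay below 0 in 15 of 19 with PFDA (median -0.11), 12 with PFNA and 7 with PFOA. Estrogen receptor targets had medians of -0.08, 0.02 and 0.04 from PFOA to PFDA.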

How the data were processed

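Whole-number read counts per gene symbol were deposited by the authors, 1 file per library. Per the submitters' processing notes, FastQC, MultiQC, STAR, featureCounts and GRCh38 were used; their versions, the gene annotation and the strand setting were not given in the sources used here. The files were used as raw counts of 34718 symbols, with no normalization by the authors seen in the values. The members and the gene lists were chosen with earlier results of these data known.

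All 96 libraries of the plate, in 22 groups, were fitted together in edgeR 4.0.16 (R 4.3.3) with TMM scaling, the filter filterByExpr at a count minimum of 10 and a total minimum of 15, and quasi-likelihood F-tests. P-values were adjusted by Benjamini-Hochberg over 19468 genes, and for the 12 pair tests over genes and tests together. The trend is the log2 slope per 10-fold step of dose. Levels are edgeR's CPM on TMM-scaled totals, given as mean ± SD or per library. Intervals are 95% and unadjusted. DESeq2 1.42.0, another scaling, no filter, the number term, fits within either number group, smaller fits, left-out libraries, DMSO controls for PFOA and a replicate block were alternatives. The script was tested on simulated counts. No 2 libraries held equal values.

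Genes were named by rule: those called at 25 µM, in the mean or in a trend (at most 6 in each direction), those passing with the number term with all 4 libraries on one side (5 in each direction), pair calls, the extremes of PFDA at 0.25 µM, and 15 listed PPAR, lipid and reductase genes. PLIN2, one of these, did not pass the filter. A few listed genes are not reported here. Members of the described lists are named beside their counts. Promoter sequences came from RefSeq (GRCh38.p14), matched by symbol for the 10 genes looked up, and 69.549% of the files' symbols matched a current or older symbol.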

Additional observations from a re-analysis of the deposited data

Results flagged for a closer look

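AKR1C2 responded differently to PFDA and PFNA at 25 µM, by -0.86 on the log2 scale (adjusted p 0.00158, edgeR's quasi-likelihood test over all genes and 12 pair tests). GRINA and CDKN1C responded differently to PFDA and PFOA at 25 µM, by -0.95 (adjusted p 0.00169) and -2.75 (adjusted p 0.00633), a comparison in which chemical and solvent cannot be told apart. ANGPTL4 in PFDA 25 µM replicate 2 stood at 937 CPM, away from the other 3 libraries at 795 to 819. PDK4 in the same library stood at 16.6 CPM against 20.5 to 20.8 in the others. ANGPTL4 in water control 47 stood at 516 CPM against 570 to 577 in the other 3. These 3 single-library values were found in 108 groups of 4 to 10 libraries, and chance gives such a value in about 1 of 20.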

How the results depend on the processing

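AKR1C1 with PFDA at 25 µM remained called under all 14 alternatives tried. SLPI remained called under the 13 that gave it an adjusted p, but DESeq2 gave it none and did not call it. With DESeq2's size factors in edgeR all 28 counts stayed within 1.5 times, and no named gene reversed its direction among the called results under any alternative. Of the 13 genes called with PFDA at 25 µM, 13 were also called without PFDA 0.25 µM replicate 1 and 13 with only the groups compared, 9 after thinning, and 7 in DESeq2. Those not called in DESeq2 were SLPI, CDKN1C, DLG3, NUMBL, S100P and RPS15AP1. Depth and the number of controls limit the precision: the 4 water controls gave PFOA a median 95% interval of 0.291 log2 units either side at its narrowest dose, against 0.232 for PFDA. Counts of called genes that moved by more than 1.5 times follow, and the cause was not tested. DESeq2 in place of edgeR gave 3 and 2 with PFOA at 0.025 and 25 µM, 2, 2 and 19 with PFNA at 0.25, 2.5 and 25 µM and 9, 519, 3 and 54 with PFDA at 0.025, 0.25, 2.5 and 25 µM, 53 for the PFNA trend, and 129 for the mean of the 3 at 25 µM, with pairs at 1, 2, 2 and 3 for PFNA against PFOA at 0.025, 0.25, 2.5 and 25 µM, 1, 1 and 6 for PFDA against PFOA at 0.025, 2.5 and 25 µM and 1 and 19 for PFDA against PFNA at 0.025 and 0.25 µM. Without the filter on low counts there were 67, 51, 79 and 63 with PFOA at 0.025, 0.25, 2.5 and 25 µM, 2, 14, 207 and 254 with PFNA at 0.025, 0.25, 2.5 and 25 µM and 147, 280, 91 and 199 with PFDA at 0.025, 0.25, 2.5 and 25 µM, 8 for the PFOA trend, 255 for the PFNA trend and 18 for the PFDA trend, and 373 for the mean of the 3 at 25 µM, with pairs at 42, 34, 30 and 68 for PFNA against PFOA at 0.025, 0.25, 2.5 and 25 µM, 9, 8, 14 and 61 for PFDA against PFOA at 0.025, 0.25, 2.5 and 25 µM and 58, 139, 5 and 28 for PFDA against PFNA at 0.025, 0.25, 2.5 and 25 µM. With the number term there were 1 and 4 with PFOA at 0.025 and 2.5 µM, 1, 20 and 118 with PFNA at 0.25, 2.5 and 25 µM and 334, 14 and 95 with PFDA at 0.25, 2.5 and 25 µM, 80 for the PFNA trend and 1 for the PFDA trend, and 385 for the mean of the 3 at 25 µM, with pairs at 1, 2 and 4 for PFNA against PFOA at 0.25, 2.5 and 25 µM, 2, 1 and 12 for PFDA against PFOA at 0.025, 2.5 and 25 µM and 15 and 4 for PFDA against PFNA at 0.25 and 25 µM. Within the low-number libraries there were 212, 59, 58 and 100 with PFOA at 0.025, 0.25, 2.5 and 25 µM, 431 and 313 with PFNA at 2.5 and 25 µM and 248, 999, 169 and 113 with PFDA at 0.025, 0.25, 2.5 and 25 µM, and 1126 for the mean of the 3 at 25 µM, with pairs at 28, 31, 7 and 14 for PFNA against PFOA at 0.025, 0.25, 2.5 and 25 µM, 1, 5, 1 and 5 for PFDA against PFOA at 0.025, 0.25, 2.5 and 25 µM and 14, 182 and 2 for PFDA against PFNA at 0.025, 0.25 and 2.5 µM. Within the high-number libraries there were 8, 21, 43 and 15 with PFOA at 0.025, 0.25, 2.5 and 25 µM, 20, 24, 4 and 27 with PFNA at 0.025, 0.25, 2.5 and 25 µM and 22, 54, 89 and 86 with PFDA at 0.025, 0.25, 2.5 and 25 µM, and 9 for the mean of the 3 at 25 µM, with pairs at 4, 4, 10 and 47 for PFNA against PFOA at 0.025, 0.25, 2.5 and 25 µM, 1, 4, 11 and 56 for PFDA against PFOA at 0.025, 0.25, 2.5 and 25 µM and 2, 7 and 28 for PFDA against PFNA at 0.25, 2.5 and 25 µM. With only the groups compared in the fit there were 8 and 6 with PFOA at 0.25 and 2.5 µM, 13 and 102 with PFNA at 2.5 and 25 µM and 0, 1 and 67 with PFDA at 0.25, 2.5 and 25 µM, 267 for the PFNA trend, and 215 for the mean of the 3 at 25 µM, with pairs at 1, 1 and 11 for PFNA against PFOA at 0.25, 2.5 and 25 µM, 2 and 6 for PFDA against PFOA at 0.025 and 25 µM and 16, 1 and 9 for PFDA against PFNA at 0.025, 2.5 and 25 µM. After thinning there were 0 and 1 with PFOA at 0.25 and 2.5 µM, 0 with PFNA at 25 µM and 1 and 20 with PFDA at 2.5 and 25 µM, 8 for the PFNA trend, and 22 for the mean of the 3 at 25 µM, with pairs at 1 for PFDA against PFNA at 0.25 µM. Without PFDA 0.25 µM replicate 1 there were 4 with PFNA at 25 µM and 0 and 35 with PFDA at 0.25 and 25 µM, 12 for the PFNA trend, and 151 for the mean of the 3 at 25 µM. Without the 5 carboxylate and control libraries over 10% mitochondrial counts there were 0 with PFOA at 0.25 µM, 1, 0 and 0 with PFNA at 0.025, 2.5 and 25 µM and 62 and 8 with PFDA at 0.25 and 25 µM, and 3 for the mean of the 3 at 25 µM. Against the DMSO controls, PFOA gave 1173, 988, 781 and 945 at 0.025, 0.25, 2.5 and 25 µM. Leaving out 1 dosed replicate number or 1 water control at a time gave 0 to 2 for PFOA 0.25 µM, 0 to 2 for PFOA 2.5 µM, 0 to 1 for PFNA 2.5 µM, 0 to 6 for PFNA 25 µM, 1 to 547 for PFDA 0.25 µM, 3 to 11 for PFDA 25 µM, 0 to 4 for the PFNA trend, 0 to 2 for PFDA against PFOA at 25 µM, 0 to 8 for PFDA against PFNA at 0.25 µM and 3 to 344 for the mean of the 3. Replicate numbers were not used to pair libraries in the main fit. Same-numbered PFNA and PFDA libraries of a dose deviated together with correlations as low as -0.024, and no pair of groups had all correlations over 0.1. Between PFOA doses the same-numbered correlations were low but all positive, at 0.028 to 0.091. These values do not settle whether libraries of a number share some spread. Adding the replicate number as a block gave 38 for the PFOA trend and 341 for the PFNA trend, with pairs at 45, 27 and 88 for PFDA against PFNA at 0.025, 2.5 and 25 µM. Within the low-number and the high-number libraries the trend was called for 0 and 15 genes with PFOA, 405 and 36 with PFNA (16 in both, all in the same direction) and 0 and 40 with PFDA. The exclusion of PFDA 0.25 µM replicate 1, the exclusion of the 5 carboxylate and control libraries over 10% mitochondrial counts, which left 2 such libraries of another chemical in the fit, and the thinning were chosen after seeing the data.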
